A study of Mus musculus with 8 samples.

Results

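The pentose phosphate pathway is described here through the enzymes of a list of 7, among them Pgls, Pgd, Rpia, Rpe, Tkt and Taldo1, in mouse regulatory T cells with and without Raptor. The enzymes were taken as a fixed list and looked up by gene symbol among the named probe sets of the array. Of the 7, 5 had a named probe set and all 5 were bright enough to be tested, among 11413 genes tested in all. They were Pgls and Pgd of the oxidative branch, and Rpia, Tkt and Taldo1 of the non-oxidative branch. Rpe was matched to no probe set in the annotation used and was not analysed here.

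Single-channel oligonucleotide arrays, 8 in all and 1 per RNA sample, measured transcripts of freshly sorted, untreated CD4+CD25+ cells of spleen and peripheral lymph nodes. There were 4 samples from WT mice and 4 from CD4(cre)Raptor(fl/fl) mice (RaptorKO), all on the C57Bl/6J background. Rptor encodes Raptor, the scaffold of the kinase complex mTORC1, and the study asked which transcripts depend on it in these cells. Cre driven by Cd4 acts in conventional T cells as well as in regulatory T cells, so the animals lack Raptor in T cells generally. The labels give neither the age nor the sex of the mice, nor whether the WT mice carried Cre or a floxed allele. Whether replicates are separate animals is not stated either, so a p-value reflects the scatter of these samples only, part of which may be technical.

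The pathway starts from glucose 6-phosphate. Its oxidative branch makes NADPH, the reductant used for lipid synthesis and for regenerating glutathione and thioredoxin, and ends in a pentose phosphate. Its non-oxidative branch interconverts pentose phosphates with glycolytic sugars, and so supplies ribose 5-phosphate for nucleotides or returns carbon to glycolysis. Genes of the pathway are known targets of mTORC1 signalling through SREBP in other cells, and of the oxidative stress factor NRF2 (Nfe2l2).

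Median log2 intensities of the arrays ran from 5.21 to 5.29. Foxp3 lay between 10.79 and 11.04 and Il2ra, which encodes CD25, between 11.14 and 11.47 over the 8 arrays, so both defining markers of regulatory T cells were bright in every sample. Of the 8 markers of these cells on the list, 1 fell, Nrp1 (-1.44, limma adjusted p = 0.000736), and 0 rose, beside 1.14% and 0.824% of all genes tested. Ctla4 (-0.32), Cd4 (-0.22) and Ikzf2 (0.21) did not pass, but their groups did not overlap, as for 8.82% of all genes tested. The better-hybridised Rptor probe set averaged 6.86 in WT (SD 0.12, n = 4) and 6.64 in RaptorKO (SD 0.22), which did not pass in the limma fit over probe sets (adjusted p = 0.507), and the values overlapped. A dimmer Rptor probe set averaged 5.98 in WT (SD 0.11) and 5.56 in RaptorKO (SD 0.15), without overlap, a difference of -0.42 (95% interval -0.66 to -0.18, unadjusted p = 0.00267, limma adjusted p = 0.0923). Where either lies relative to the deleted exons is not known here. Replicates 1 and 2 of both genotypes had high Xist (10.88 to 11.18) and low Kdm5d (3.74 to 4.39), and replicates 3 and 4 had low Xist (5.04 to 5.62) and high Kdm5d (8.22 to 8.51). These sets of arrays therefore differ in sex-linked transcripts in the same way in both genotypes. What else separates them is not given in the labels. Some myeloid markers also differed between the sets. C1qa ran from 4.67 to 5.78 in replicates 1 and 2 and from 6.15 to 6.77 in replicates 3 and 4. C1qc ran from 5.78 to 6.61 and from 7.16 to 7.83, and C1qb did not overlap either. The myeloid markers Lyz2, Csf1r, Cd68 and Fcgr3 overlapped between the sets. Markers of myeloid cells, a list of 10 with 7 tested, averaged 4.75 to 5.57 on the WT arrays and 5.21 to 5.79 on the RaptorKO arrays, with 6 positive changes of 7 and a median of 0.39. B cell markers, a list of 6 with 4 tested, averaged 5.15 to 6.37 on WT and 5.72 to 6.16 on RaptorKO arrays. Their changes were positive for 3 and negative for 1, with a median of 0.25, and Cd79a ran from 6.09 in WT 1 to 7.68 in RaptorKO 1. Erythroid and cycling-cell markers had median changes of 0.14 and 0.10. Those of CD8 T and NK cells, 5 with 3 tested, averaged 5.06 to 6.38 and 5.28 to 5.77 over all 5, with a median change of -0.77 over the 3 tested. The NK markers Ncr1 and Klrb1c lay under the floor on all 8 arrays. Cd8a differed by -1.03 (limma unadjusted p = 0.0385, adjusted p = 0.341) and Cd8b1 by -0.77 (limma unadjusted p = 0.00349, adjusted p = 0.103). Gzma, the other one tested, went the other way, by 0.28 (limma adjusted p = 0.88). The part of these other cells in the results was not tested.

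None of the 5 measured enzymes passed the test between genotypes. In limma with Benjamini-Hochberg adjustment, 0 of 5 had an adjusted p under 0.05, where 1.96% of all genes tested did (0.824% higher and 1.14% lower), and 0 of 5 had an unadjusted p under 0.05, where 13.0% of all genes tested did. The WT and RaptorKO values overlapped for all 5, while they did not overlap for 8.82% of genes tested. The median change, RaptorKO minus WT, was -0.023 on the log2 scale, beside -0.0092 over all genes tested, and 4 of 5 changes were negative, beside 52.4% of all genes. A missed threshold does not show that the levels were alike, so the 95% interval of each change is given below; the 5 intervals reached no further than -0.41 on the lower side and 0.31 on the upper.

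**Figure D1:**
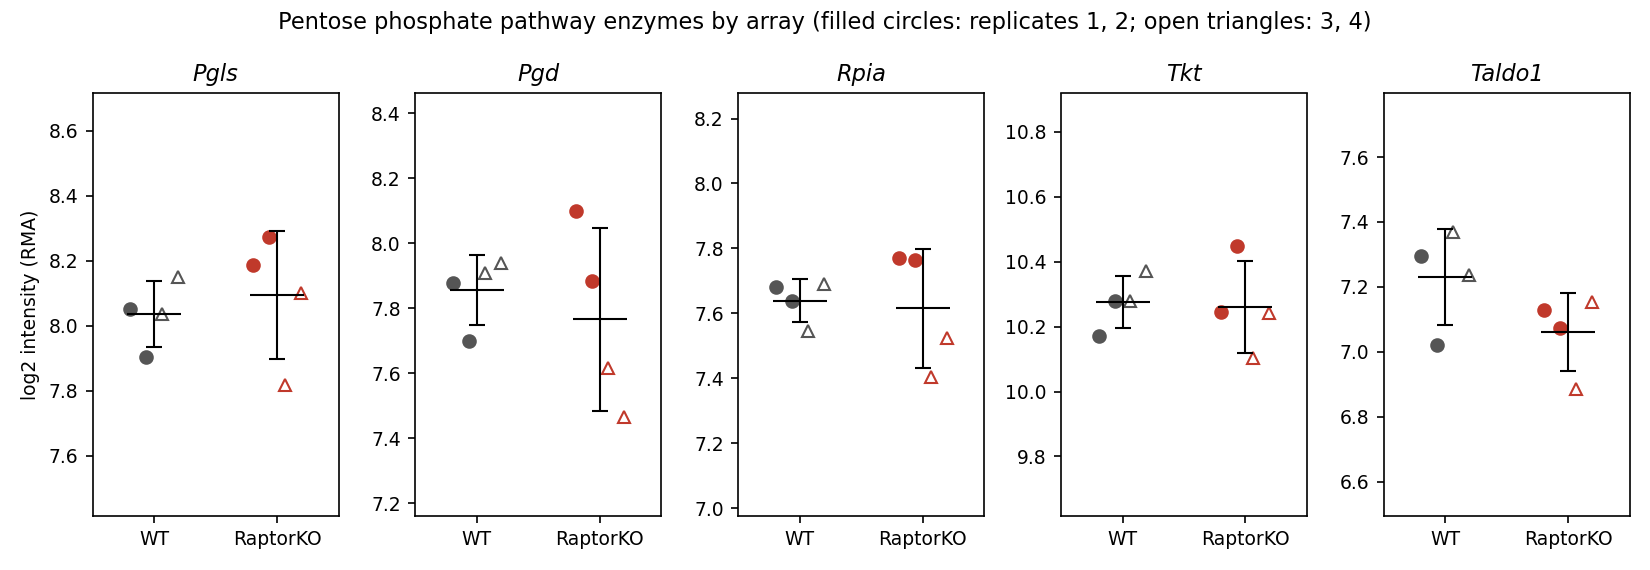
Log2 intensity (RMA, vertical axis) of the 5 measured enzymes on each array, WT in grey and RaptorKO in red; horizontal marks and bars are the mean and SD of 4 arrays, and each panel spans the same log2 range. The genotypes overlap in every panel, and in RaptorKO the filled circles (replicates 1 and 2) lie above the open triangles (replicates 3 and 4) in the main probe sets of Pgls, Pgd, Rpia and Tkt.

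In the oxidative branch, Pgd encodes 6-phosphogluconate dehydrogenase, which makes NADPH and releases a pentose phosphate. A search of RefSeq promoters (GRCm38.p6, 250 bases before to 50 after each start; 6 enzymes were searched, with 7 promoters) looked for the antioxidant response element core TGACNNNGC, bound by NRF2, the sterol regulatory element TCACNCCAC, bound by SREBP, and the E-box CACGTG, bound by MYC among others. Both strands were read. TGACNNNGC was found at one of the 2 Pgd starts and in no other promoter searched, and 12.4% of all 32851 promoters hold it. TCACNCCAC, held by 1.24% of promoters, and CACGTG, held by 7.15%, were in none of the 7. The match is shown on the gene's strand with the matching letters in capitals. It begins 3 bases after the annotated start, so it lies within the transcript from that start and not before it. The other Pgd start, which lies upstream on the gene's strand, had no match. The match therefore lies downstream of both annotated starts, inside the gene as read from the upstream one. Whether the start with the match is used in these cells was not tested. A match is a description of the letters and not evidence of binding.
Pgd, chr4:149166061-149166090, minus strand, across the start: catttcagagcTGACATTGCactgatcgga

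Pgls encodes 6-phosphogluconolactonase, the lactonase that precedes Pgd in the branch. Its log2 values were 8.05, 7.90, 8.04 and 8.15 in WT 1 to WT 4 and 8.19, 8.27, 7.82 and 8.10 in RaptorKO 1 to RaptorKO 4. RaptorKO held both the highest and the lowest array, and the groups overlapped. The change was 0.060 (SE 0.12, 95% interval -0.20 to 0.31, limma adjusted p = 0.905), the only positive one of the 5.

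Pgd read 7.88, 7.70, 7.91 and 7.94 in WT 1 to 4 and 8.10, 7.88, 7.62 and 7.46 in RaptorKO 1 to 4. RaptorKO 1 was the highest array and RaptorKO 3 and 4 the lowest, so that the SD was 0.28 in RaptorKO against 0.11 in WT. The change was -0.091 (SE 0.14, 95% interval -0.39 to 0.21, limma adjusted p = 0.869). The other 2 Pgd probe sets differed by -0.11 and -0.14 (limma fit over probe sets, adjusted p = 0.831 and 0.715), so all 3 had a lower mean in RaptorKO. The 2 brighter sets carry the array maker's x suffix, which marks probes that may also bind other transcripts. The dimmest, without that suffix, read 7.01, 6.83, 7.27 and 7.14 in WT and 7.08, 6.88, 6.75 and 6.97 in RaptorKO, and its RaptorKO SD was 0.14.

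In the non-oxidative branch, Rpia encodes the isomerase that forms ribose 5-phosphate. Its values were 7.68, 7.64, 7.55 and 7.69 in WT 1 to 4 and 7.77, 7.76, 7.40 and 7.52 in RaptorKO 1 to 4. Again RaptorKO held both extremes, with 1 and 2 above every WT array and 3 and 4 below every WT array. The change was -0.023 (SE 0.11, 95% interval -0.26 to 0.22, limma adjusted p = 0.962).

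Taldo1 encodes transaldolase, which passes a dihydroxyacetone unit between sugar phosphates. It read 7.30, 7.02, 7.37 and 7.24 in WT 1 to 4 and 7.13, 7.07, 6.89 and 7.15 in RaptorKO 1 to 4. RaptorKO 3 was the lowest array, and 3 of the 4 WT arrays lay above every RaptorKO array. The change of -0.17 (SE 0.11, 95% interval -0.41 to 0.070, limma adjusted p = 0.588), 1.12-fold, was the most negative of the 5 and did not pass. It was the enzyme with the smallest p of the 5, and 25.2% of the genes tested had a smaller one.

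Tkt encodes transketolase, which moves ketol units between sugars with thiamine diphosphate as cofactor. Its bright probe set, which also carries the x suffix, read 10.17, 10.28, 10.28 and 10.37 in WT 1 to 4 and 10.25, 10.45, 10.10 and 10.24 in RaptorKO 1 to 4. The change was -0.016 (SE 0.10, 95% interval -0.24 to 0.21, limma adjusted p = 0.974). A dim probe set, above the filter's floor on all 8 arrays, did not follow it. It read 5.18, 4.98, 4.83 and 5.22 in WT and 5.20, 5.30, 5.76 and 5.72 in RaptorKO, a difference of 0.44 (95% interval 0.11 to 0.77) that did not pass over all probe sets (limma fit over probe sets, adjusted p = 0.208, unadjusted p = 0.0131, with 1.74% of probe sets called). RaptorKO 3 and 4 were the highest arrays of the dim set and RaptorKO 2 of the bright one. The dim set minus the bright set within each array was higher in RaptorKO by 0.46, a comparison chosen after the values were seen that did not pass either (exact permutation test, two-sided, p = 0.114, n = 4 each, smallest possible p = 0.0286). With the mean of both probe sets the change of Tkt was 0.21 (limma adjusted p = 0.329), so its sign depended on the probe set. Which transcripts the dim set detects is not known here.

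The order of the replicates within each genotype was compared over the main probe set of each enzyme. In RaptorKO, replicates 1 and 2 both lay above replicates 3 and 4 for 4 of the 5 enzymes, all but Taldo1; of all genes tested, 30.7% had that order. In WT, 0 of 5 had it, beside 16.8% of all genes. The genotype difference was accordingly positive within replicates 1 and 2 and negative within replicates 3 and 4 for Pgls (0.25 and -0.13), Pgd (0.20 and -0.38), Rpia (0.11 and -0.15) and Tkt (0.12 and -0.15), an arrangement seen in 30.1% of genes tested. For Taldo1 it was negative in both (-0.057 and -0.28). For Pgd and Rpia, both RaptorKO arrays lay above both WT arrays in the first set and below both in the second, as in 5.38% of genes tested. For Pgd the margin in the first set was very small, with RaptorKO 2 at 7.884 and WT 1 at 7.879. Other probe sets did not all follow. In the Pgd set without the x suffix, RaptorKO 4 (6.97) lay above RaptorKO 2 (6.88), and in both other Pgd sets RaptorKO 2 lay below WT 1. In the dim Tkt set RaptorKO 1 and 2 lay below RaptorKO 3 and 4.

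The difference between the sets was tested as an interaction of genotype with replicate set. Pgd had the lowest p of the 5, with -0.59 (SE 0.20, unadjusted p = 0.0149), and did not pass after adjustment (limma interaction, adjusted p = 0.362). The other interactions were -0.39 for Pgls (adjusted p = 0.481), -0.26 for Rpia, -0.27 for Tkt and -0.23 for Taldo1 (limma interaction, adjusted p = 0.657). All 5 were negative, but the share of negative interactions over all genes was not computed, so this count has no reference. No gene of the 11413 passed this interaction test in limma (0.00%), although 11.4% had an unadjusted p under 0.05. As a term beside genotype, replicates 1 and 2 against 3 and 4 called 0.158% of genes and 0 of the 5 enzymes. Their differences ran from -0.030 for Taldo1 to 0.17 for Rpia (limma adjusted p = 0.674, the lowest of the 5).

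**Figure D2:**
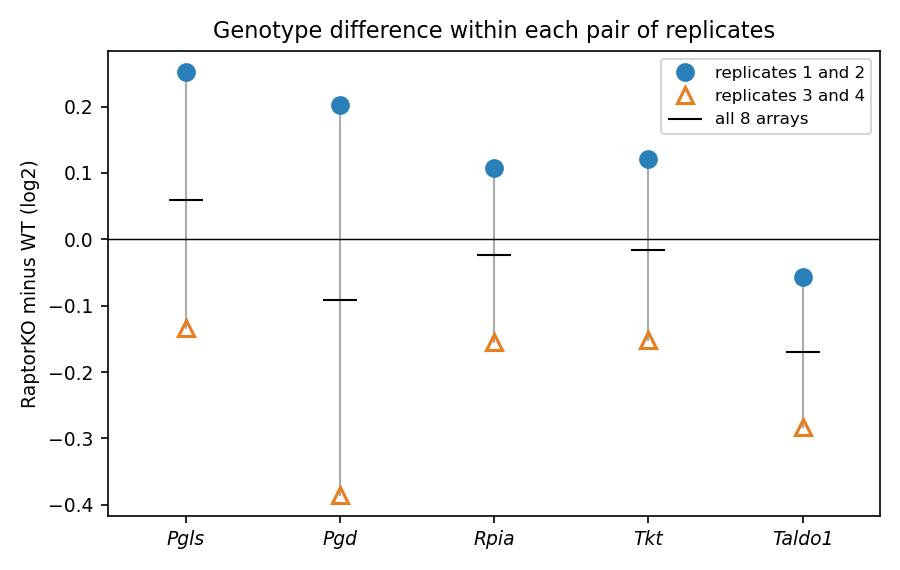
RaptorKO minus WT (log2, vertical axis) for each measured enzyme within replicates 1 and 2 (circles), within replicates 3 and 4 (triangles) and over all 8 arrays (bars). Pgls, Pgd, Rpia and Tkt lie above 0 in the first set and below it in the second, Taldo1 below 0 in both, and no interaction passed the test.

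The enzymes varied together across arrays to different degrees. After each genotype was centred on its mean, Pearson's r over the 8 arrays was highest for Pgls with Rpia (0.82), then 0.77 for Pgls with Tkt and 0.74 for Pgd with Rpia, and lowest for Tkt with Taldo1 (0.22). All pairs were positive, but the share of positive pairs over all genes was not computed, so this has no reference. The points share arrays and a common normalization, so these values are a description. Among the other genes tested, those whose pattern was most like that of Tkt by the same measure were Romo1 (0.99), Cdca3 (0.98) and Ttpal (0.97). They were picked as the highest values over all these genes on only 8 arrays, so high values follow from the choice. Only the bright Tkt probe set was used for them.

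The oxidative and non-oxidative branches did not separate by genotype. Levels of different probe sets are not comparable, so each gene was first centred on its mean over the 8 arrays. The mean of Pgls and Pgd then differed between genotypes by -0.016 (SE 0.12), and the mean of Rpia, Tkt and Taldo1 by -0.070 (SE 0.070). The oxidative minus the non-oxidative score was -0.0096, -0.10, -0.017 and 0.022 in WT 1 to 4 and 0.17, 0.059, -0.0057 and -0.11 in RaptorKO 1 to 4. RaptorKO 1 was the highest array and RaptorKO 4 the lowest, and the groups overlapped. The branch shift was 0.054 (SE 0.065), smaller than the SD of the score in RaptorKO (0.12). Replicates 1 and 2 alone gave 0.17, and replicates 3 and 4 alone gave -0.063. The shift was 0.0064 without RaptorKO 1 and 0.10 without RaptorKO 4, and it turned to -0.034 when each gene's probe sets were averaged. The score rests on 2 of 3 oxidative and 3 of 4 non-oxidative enzymes.

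**Figure D3:**
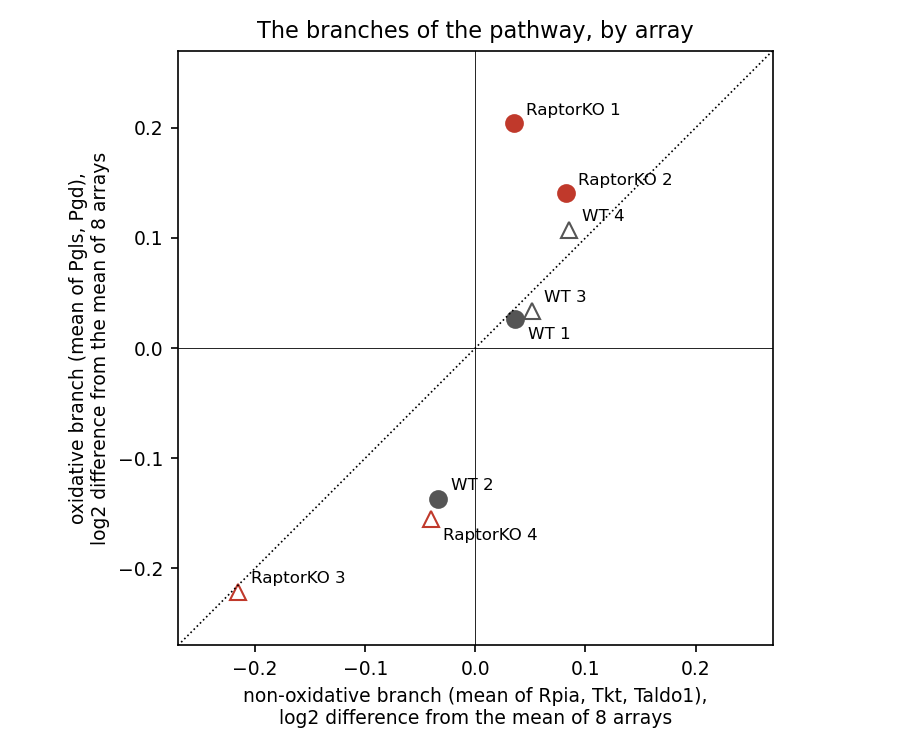
Mean of the centred log2 values of the oxidative enzymes (vertical axis) against that of the non-oxidative enzymes (horizontal axis) for each array, WT in grey and RaptorKO in red, circles for replicates 1 and 2 and triangles for 3 and 4; the dotted line marks equal shifts. RaptorKO 1 and 2 and WT 4 lie in the upper part, RaptorKO 3 and 4 and WT 2 in the lower part, and the genotypes are not separated.

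No paralog or enzyme around the pathway passed the test either. Of a list of 15 such genes, 13 were tested and 0 were called in limma, beside 1.96% of all genes (1 had an unadjusted p under 0.05, beside 13.0%), with 4 positive and 9 negative changes and a median of -0.090. H6pd, the dehydrogenase that feeds a separate NADPH pool in the endoplasmic reticulum, had the smallest p. It read 6.80, 6.92, 6.71 and 6.71 in WT 1 to 4 and 7.02, 6.93, 7.04 and 7.08 in RaptorKO 1 to 4, without overlap, a difference of 0.23 (SE 0.095, limma adjusted p = 0.324), with 0.11 in replicates 1 and 2 and 0.34 in replicates 3 and 4. Hexokinase 1 (Hk1), which makes glucose 6-phosphate, differed by -0.30 (SE 0.14, limma adjusted p = 0.394), with -0.093 in replicates 1 and 2 and -0.50 in replicates 3 and 4. The transketolase-like Tktl2 differed by 0.042 (adjusted p = 0.945), and Tktl1 lay under the floor on all 8 arrays.

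Other sources of NADPH had 0 called of 6 tested in limma, from a list of 10, with 5 positive changes and a median of 0.15, where 1.96% of all genes were called. An unadjusted p under 0.05 was seen for 3, beside 13.0% of all genes: Nadk2 and Nnt, with positive changes, and the cytosolic NAD kinase Nadk, which differed by -0.26 (SE 0.12, limma adjusted p = 0.38). Nadk2, the mitochondrial NAD kinase, read 5.60, 5.64, 5.86 and 5.77 in WT 1 to 4 and 6.21, 6.12, 6.01 and 6.15 in RaptorKO 1 to 4, without overlap. The difference was 0.40 (SE 0.10) and did not pass (limma adjusted p = 0.069), with 0.54 in replicates 1 and 2 and 0.26 in replicates 3 and 4. Nnt, the mitochondrial transhydrogenase that makes NADPH from NADH, read 8.71, 8.32, 8.42 and 8.33 in WT and 8.91, 8.92, 8.89 and 8.68 in RaptorKO. WT 1 overlapped the lowest RaptorKO array, and the difference was 0.41 (SE 0.12, limma adjusted p = 0.117), or 0.22 when its probe sets were averaged (limma adjusted p = 0.35). C57BL/6J mice are known to carry a deletion within Nnt, and where this probe set lies relative to it is not known here.

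Among genes of the glutathione and thioredoxin systems, 1 of 15 tested fell and 0 rose in limma, beside 1.14% and 0.824% of all genes. They came from a list of 19, with a median change of -0.063 and 11 negative changes. The gene that fell was Glrx, glutaredoxin 1, which reduces glutathionylated proteins. It read 7.61, 7.67, 7.75 and 8.44 in WT 1 to 4 and 7.004, 6.93, 6.84 and 7.02 in RaptorKO 1 to 4. Every RaptorKO array lay below every WT array, and WT 4 was the highest. Glrx fell by 0.92 on the log2 scale (SE 0.16, 95% interval -1.28 to -0.56, limma adjusted p = 0.0158), and without WT 4 the change was -0.73 (limma adjusted p = 0.0106). It had the same sign within replicates 1 and 2 (-0.67) and within replicates 3 and 4 (-1.17), but passed in neither set alone (limma adjusted p = 0.172 and 0.0699). The reductases that spend NADPH directly did not pass: glutathione reductase (Gsr) differed by -0.13 (SE 0.11) and thioredoxin reductase 1 (Txnrd1) by -0.19 (SE 0.10). Thioredoxin reductase 2 (Txnrd2) went the other way, by 0.047 (SE 0.13). Gclc, which with Gclm makes the rate-limiting enzyme of glutathione synthesis, differed by -0.063, and Gclm by -0.029.

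Of 8 known regulators of pathway genes, 5 were tested in limma, and 1 fell and 0 rose, beside 1.14% and 0.824% of all genes, with a median of 0.20. Hif1a, the hypoxia-inducible factor, fell by 0.54 (SE 0.10, limma adjusted p = 0.0209). Of the fits that left out 1 array, those without WT 2 and without RaptorKO 2 kept the call and the others did not (adjusted p = 0.0801 without WT 3, the highest). It was also lost when its probe sets were averaged (limma adjusted p = 0.0707) and with the replicate block (limma adjusted p = 0.0646). Nfe2l2 differed by 0.22 (SE 0.11, limma adjusted p = 0.433), Srebf2 by -0.25 (SE 0.11, limma adjusted p = 0.356) and Myc by 0.37 (SE 0.11, limma adjusted p = 0.138), none of which passed. An unadjusted limma p under 0.05 was seen for 3 of the 5 tested, Hif1a, Myc and Srebf2, beside 13.0% of all genes. The genotypes did not overlap for these 3, as for 8.82% of all genes tested.

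**Figure D4:**
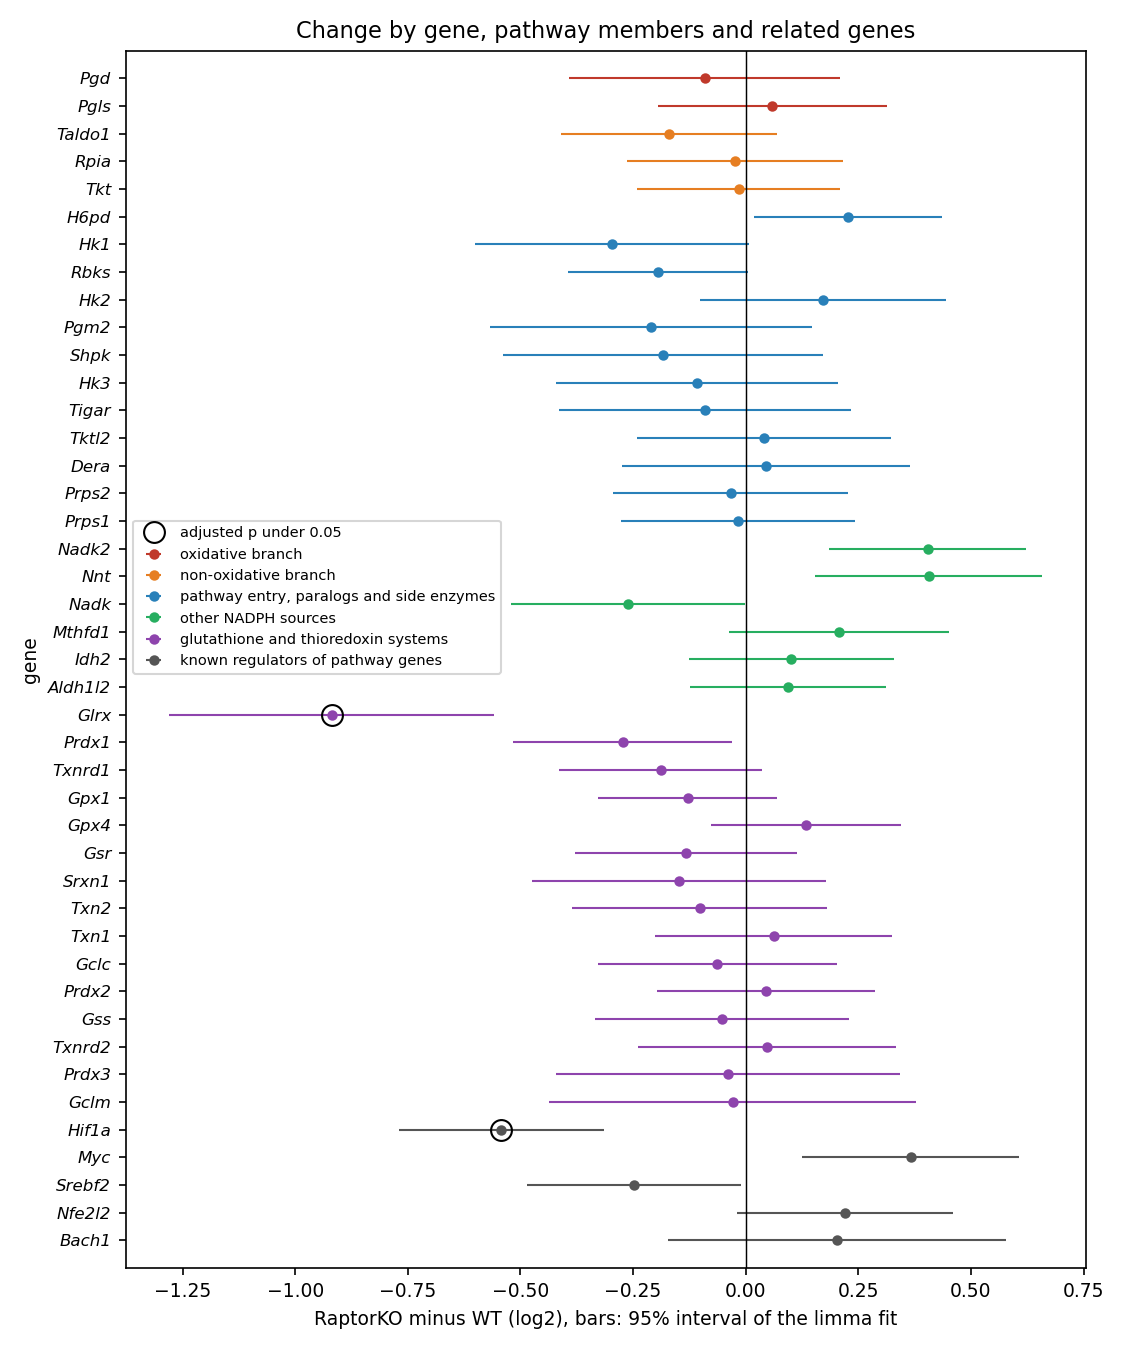
RaptorKO minus WT (log2, horizontal axis) with the 95% interval of the limma fit for the 5 measured enzymes, then for related genes by list; circled points have an adjusted p under 0.05. The intervals of all 5 enzymes include 0, and of the related genes Glrx (-0.92) and Hif1a (-0.54) are circled.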

How the data were processed

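The deposited values are log2 intensities per probe set, made by the authors with RMA (robust multi-array averaging) as named per the submitters' processing notes; its version and the genome build are not given in the sources used here. No further normalization was applied. Of 45141 probe sets, 28898 had a single gene in the platform annotation, 551 had several and 15692 none; 28689 were updated to current symbols through a RefSeq table (GRCm38.p6). Each of 17097 genes was represented by its probe set with the highest mean over 8 arrays, and 11413 genes whose signal exceeded the 40th percentile on 4 or more arrays were tested. This rule favours bright probe sets, so all probe sets of the enzymes are also given. Groups and replicate numbers come from the sample titles.

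RaptorKO was compared with WT in limma 3.58.1 (R 4.3.3; lmFit, eBayes, no covariates), with calls at a Benjamini-Hochberg adjusted p under 0.05 over all genes tested. Changes are RaptorKO minus WT. The procedure was tested on simulated data. There it recovered 100% of changes of 1 and 52% of changes of 0.5 on the log2 scale, and 8.43% of its calls were false. The enzymes, lists, tests and the rule for named genes (the enzymes, their paralogs, and up to 4 called members of each list or else the 2 with the smallest p) were chosen with earlier results of these data known. Further list members were named after their values were seen. A further enzyme of the list, and what belongs to it, is not reported here. Alternatives were a replicate block, a term for replicates 1 and 2 against 3 and 4, each of these sets alone, the mean of all probe sets, a 60th percentile filter or none, quantile normalization, median centring, an intensity trend, array weights and leaving out each array. Figures used matplotlib 3.10.9. The number of arrays limits the precision.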

Additional observations from a re-analysis of the deposited data

Results flagged for a closer look

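In the main probe sets, the genotype difference of Pgd and of Rpia ran in opposite directions in the 2 replicate sets. Both RaptorKO arrays lay above both WT arrays in replicates 1 and 2, and below both in replicates 3 and 4. For Pgd this order rests on a very small margin, RaptorKO 2 at 7.884 against WT 1 at 7.879. In the other 2 Pgd probe sets RaptorKO 2 lay below WT 1, so the pattern did not hold there. The difference in replicates 3 and 4 minus that in replicates 1 and 2 was -0.59 for Pgd and -0.26 for Rpia, and neither passed the limma interaction test (adjusted p = 0.362 and 0.567). No array of the enzymes' probe sets or of the branch score stood apart from its group of 4 by Dixon's criterion.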

How the results depend on the processing

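No alternative called any of the 5 enzymes. Their changes ranged over the alternatives from -0.13 to 0.25 for Pgls, -0.38 to 0.20 for Pgd, -0.15 to 0.11 for Rpia, -0.15 to 0.21 for Tkt and -0.28 to -0.057 for Taldo1, the only one of the 5 that kept its sign throughout. Signs turned within replicates 1 and 2 for Pgd (0.20), Rpia (0.11), Tkt (0.12) and the paralog Tktl2 (-0.089), and within replicates 3 and 4 for Pgls (-0.13). Tkt also turned when its probe sets were averaged (0.21) and under quantile normalization (0.031). Leaving out single arrays moved Pgls between -4.92e-05 and 0.15, Pgd between -0.20 and 0.0096, Rpia between -0.075 and 0.048, Tkt between -0.078 and 0.036 and Tktl2 between -0.024 and 0.17. The branch shift was 0.17 in replicates 1 and 2 and -0.063 in replicates 3 and 4.

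The replicate block is no established pairing: same-numbered arrays correlated at 0.16, -0.15, 0.11 and 0.026 in their deviations, and 2 of 8 arrays correlated best with their own number. With the replicate block 175 genes were called, of them 85 lower against 130, and 0 regulators. Over all genes, 9 were called within replicates 1 and 2 (7 higher, 2 lower) and 85 within replicates 3 and 4 (35 higher, 50 lower), with 0 called in each of the glutathione and thioredoxin list and the regulator list. An intensity trend gave 370 (147 higher, 223 lower; 2 regulators), array weights 205 lower, the mean of probe sets 0 regulators, and the 60th percentile filter 1 NADPH source, Nadk2 (limma adjusted p = 0.0493). Without single arrays, 98 to 251 genes were called, 53 to 82 higher and 45 to 173 lower, with 0 to 1 regulators. The cause of these shifts was not tested.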

Other observations

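All 3 Tktl1 probe sets lay under the filter's floor on all 8 arrays and were not tested. The brightest averaged 4.17 in WT and 4.01 in RaptorKO (log2), and its groups overlapped. In the other 2 the groups did not overlap, with means of 3.97 and 3.33 for one and 3.44 and 2.81 for the other. Groups did not overlap for 8.82% of genes tested, and no such share was computed for probe sets under the floor. These values are therefore not read as a change of Tktl1.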
